A study of Mus musculus with 8 samples.

Results

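The MARCH ubiquitin ligases were taken as all named genes of the count table whose symbol is Marchf followed by a number, which gave 8 of 22065 named genes: Marchf1, Marchf2, Marchf3, Marchf5, Marchf6, Marchf7, Marchf8 and Marchf9. Marchf5 encodes MITOL and is the gene deleted in the study. RNA was sequenced from 8 libraries of 100 sorted hematopoietic stem cells (HSCs) each, 4 labelled Mitol KO and 4 labelled Control. The cells were taken from the bone marrow of C57BL/6 mice aged 8 to 10 weeks as the fraction with CD150 and EPCR but without CD48 and lineage markers. The paper's gate for long-term HSCs also requires CD117, the product of Kit. Mitol KO mice carried the Mitol Flox/Flox allele and the Mx1-cre transgene. Control mice were Mitol Flox/Flox littermates without Mx1-cre. Both groups received Poly:IC, which induces the Mx1 promoter, and the cells were collected 1 week later. Mx1-cre acts in hematopoietic cells and in other cells that respond to interferon, so the deletion was not limited to HSCs, and Poly:IC itself stimulates the cells of both groups. Neither the exons flanked by loxP nor whether each library came from its own mouse is given in the sources used here, so p-values measure only the spread between these libraries. In the text, Mitol KO and Control name libraries by their labels.

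MARCH proteins are named for the RING-CH domain, a zinc-binding domain that receives ubiquitin from an E2 conjugating enzyme and passes it to a nearby substrate. Most members sit in a membrane through transmembrane segments, and each ubiquitinates proteins of its own compartment, which sends them to the proteasome or to lysosomes. MITOL lies in the outer mitochondrial membrane and is known for acting on the fission and fusion machinery and, at contacts with the endoplasmic reticulum (ER), on the ER stress sensor IRE1α. MARCHF6 is an ER ligase that limits sterol synthesis enzymes, MARCHF1 and MARCHF8 remove receptors and MHC class II from the cell surface, MARCHF2 and MARCHF3 act in the endocytic pathway, MARCHF9 acts in the trans-Golgi network, and MARCHF7 has no transmembrane segment.

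Marchf5 spans chr19:37184461-37201855 on the plus strand of GRCm39, and its canonical transcript in GENCODE vM39 has 6 exons and 834 coding bases for 278 codons, without the stop codon. Processed pseudogenes, copies of a spliced transcript that were inserted elsewhere in the genome, make part of this coding sequence ambiguous for short reads. Gm7684 matched it at 95.5% identity over 830 aligned bases and Gm8641 at 96.4% over 835. A stretch of exon 2, coding bases 73 to 147, is shown because it is as long as 1 read (75 bases). Capitals mark the positions at which the 3 sequences are not all alike. The Marchf5 stretch lies at chr19:37188107-37188181 on the plus strand, that of Gm7684 at chr8:69692536-69692610 on the minus strand and that of Gm8641 at chr9:99829303-99829377 on the minus strand.
Marchf5: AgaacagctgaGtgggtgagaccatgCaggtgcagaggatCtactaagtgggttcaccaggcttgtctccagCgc
Gm7684: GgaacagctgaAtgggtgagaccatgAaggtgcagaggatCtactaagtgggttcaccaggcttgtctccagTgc
Gm8641: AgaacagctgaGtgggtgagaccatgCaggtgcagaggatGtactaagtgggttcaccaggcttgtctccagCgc
Gm7684 differs from Marchf5 at 4 of these positions and Gm8641 at 1. The study's RT-qPCR primers for Marchf5 are shown because they place the part of the transcript that this pair would amplify. The paper's text describes no RT-qPCR result for Marchf5.
Forward primer: ccgcctctcagtgctattgtc
Reverse primer: gcaaagcacacccagcaac
The forward primer lies in the untranslated part of exon 1, at chr19:37185188-37185208, and the reverse primer in the coding part of exon 2, at chr19:37188072-37188090. The amplicon of 137 bases therefore joins exons 1 and 2 and ends before the stretch shown above.

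Of the 760 windows of 75 bases in the Marchf5 coding sequence, 63 (8.29%) occurred whole in either pseudogene, 43 in Gm7684 and 37 in Gm8641. How reads with several equal matches were counted is not given in the sources used here, so counts from those windows are uncertain for Marchf5. Gm7684 had between 0 and 5 counts per library, against 223 to 354 counts for Marchf5, and Gm8641 was not analysed here. For the other MARCH genes, a search of the genome with their coding sequences gave 0 copies at the same limits of 90% identity over 100 bases. None of the 55 pairs among the 11 annotated MARCH genes shared a stretch of 31 bases of their canonical transcripts, 0 in all. A 75-base read from the canonical coding sequence of 1 family member therefore does not match that of another in full. Marchf4, Marchf10 and Marchf11 were not analysed here.

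Normalized counts were scaled to depth with DESeq2's size factors. Marchf5 had 276, 232, 308 and 281 normalized counts in Mitol KO replicates 1 to 4. In Control replicates 1 to 4 its normalized counts were 299, 312, 333 and 262. The groups overlapped, and only Mitol KO replicate 2 lay below every Control library. The means were 274 ± 31.8 (SD, n = 4) in Mitol KO and 302 ± 29.9 (SD, n = 4) in Control libraries. The log2 fold change of Marchf5 was -0.15 with a standard error of 0.13, and its 95% interval ran from 73.7% to 110% of Control. This did not pass the threshold, an adjusted p under 0.05 (edgeR's quasi-likelihood test, Benjamini-Hochberg over 16444 genes, adjusted p = 0.498, 1 of 4 Mitol KO libraries below all Control libraries). A 2-sided exact permutation test over the 70 arrangements of the libraries gave p = 0.257, where the smallest p it allows is 0.0286. Over the other normalizations, filters and tools on all 8 libraries, the log2 fold change lay between -0.21 and -0.13.

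How far a deletion would lower a count over the whole gene depends in part on which exons of Marchf5 are removed. The shares below count bases alone. The share of cells with the deletion and the stability of the remaining transcript also matter, and neither was tested. The 4 internal exons, exons 2 to 5, have 203, 131, 184 and 167 bases. Each is 6.91% to 10.7% of the canonical transcript of 1897 bases, and 2.31% to 3.57% of the 5683 bases covered by any annotated exon of the gene. Exon 6, with the stop codon and the 3′ untranslated region, has 762 bases (40.2% of the canonical transcript) and exon 1 has 450 (23.7%). Of the bases covered by any annotated exon, exon 6 is 13.4% and exon 1 is 7.92%. The spread of Marchf5 between the Control libraries was a coefficient of variation (CV, the SD as a percentage of the mean) of 9.9%. Against the canonical transcript, this is of the size of 1 internal exon's share and below that of exon 1, exon 6 or several exons together. Against all annotated exons, it exceeds the share of each internal exon and of exon 1, and lies below that of exon 6. The CV describes single libraries, whereas the interval of the group comparison ran from 73.7% to 110% of Control (edgeR). Since the exons between the loxP sites are not known here, the Marchf5 count was not read as a check of the deletion. The paper reports its own check, a PCR for the deletion, before mice were classed as deleted. In bulk libraries, fewer cells that express a gene and less RNA per cell cannot be told apart.

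**Figure D1:**
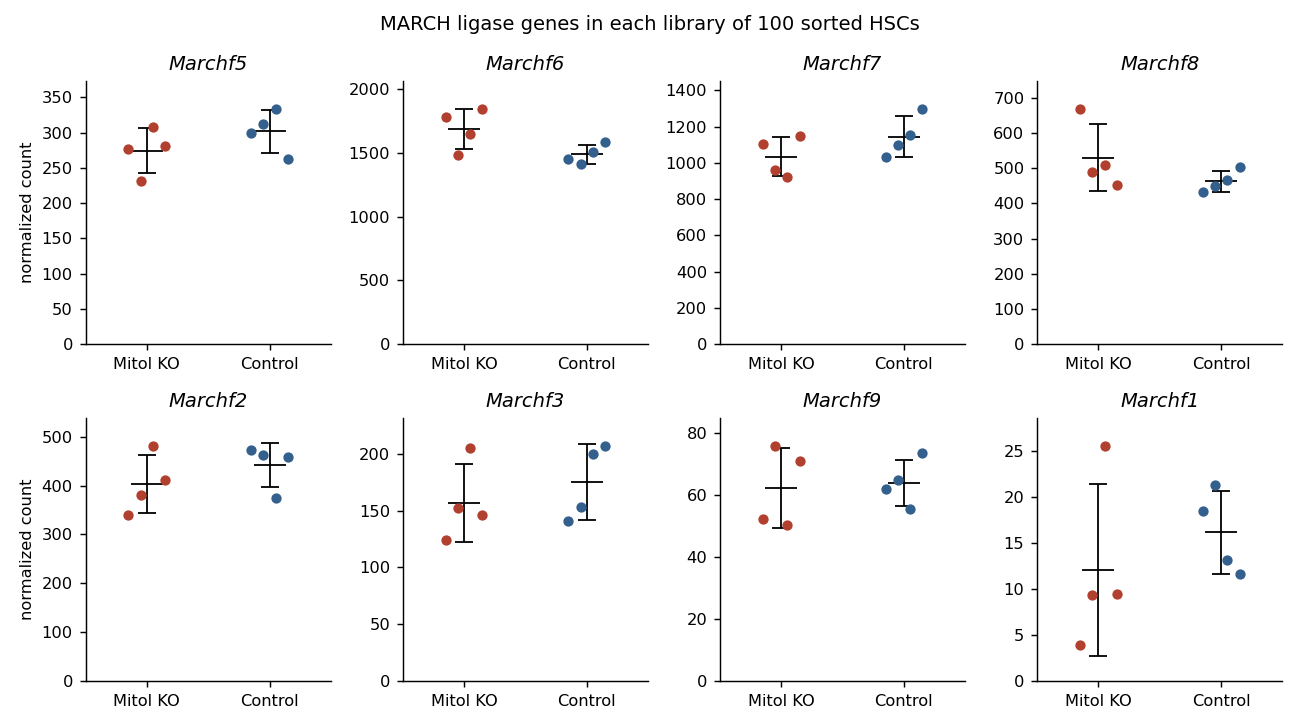
Normalized counts of the 8 MARCH genes (y axis, from 0) in the 4 Mitol KO (red) and 4 Control (blue) libraries; points are libraries, horizontal bars are means and error bars are SDs. In every panel the ranges of the groups overlap, and Marchf5 lies between 232 and 308 in Mitol KO and between 262 and 333 in Control libraries.

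Across the family, 0 of 8 MARCH genes passed the threshold in edgeR, against 8.43% of the 16444 genes tested, 4.68% higher and 3.75% lower in Mitol KO. At an unadjusted p under 0.05, the count in the family was 0 as well, against 26.4% of all genes. DESeq2 and limma-voom also called 0 of the 8, against 14% and 8.35% of all genes, with lowest adjusted p-values of 0.224 and 0.279 in the family and 0 members at an unadjusted p under 0.05, against 21.7% and 27.5%. Marchf6 and Marchf8 were fitted higher in Mitol KO and the other 6 genes lower, with a median log2 fold change of -0.15 over the 8 genes and -0.02 over all genes tested. In 0 of the 8 genes were the groups free of overlap, against 15.4% of all tested genes. All 8 members passed the filter on low counts.

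Marchf6, the ER ligase, had the lowest p-value of the family. Its normalized counts were 1777, 1482, 1645 and 1841 in Mitol KO replicates 1 to 4 and 1452, 1415, 1502 and 1581 in Control replicates 1 to 4. Of the Mitol KO libraries, 3 of 4 lay above every Control library, and replicate 2 lay within the Control range. The means of 1686 ± 159 and 1487 ± 71.5 (SD, n = 4 each) correspond to 112% of Control with an interval from 97.7% to 128% (edgeR, log2 fold change 0.16, standard error 0.09, adjusted p = 0.275). The exact permutation test gave p = 0.0857. Without Mitol KO replicate 2 the permutation p was 0.0286, the smallest possible there as well. Since only that Mitol KO library lay within the Control range, leaving it out separated the groups and fixed this p in advance. It is therefore no support for a difference. The adjusted p of edgeR in that fit was 0.176, the lowest of any MARCH gene under any alternative.

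Marchf8 and Marchf1 encode the related ligases of surface receptors and MHC class II. Marchf8 had normalized counts of 667, 488, 510 and 451 in Mitol KO replicates 1 to 4 and 431, 449, 467 and 502 in Control replicates 1 to 4. Mitol KO replicate 1 stood above the rest, and the mean was 113% of Control with an interval from 93.0% to 137% (edgeR, adjusted p = 0.419, 2 of 4 libraries above every Control library). Marchf1 was barely detected, with 5 to 28 counts per library before normalization. Its normalized counts were 3.91, 9.35, 25.6 and 9.52 in Mitol KO replicates 1 to 4 and 18.5, 21.3, 13.2 and 11.7 in Control replicates 1 to 4. Mitol KO replicate 3 was the highest of all 8 libraries and the other 3 Mitol KO libraries were the lowest. The interval of Marchf1, from 33.4% to 167% of Control, was the widest of the family (edgeR, log2 fold change -0.42, adjusted p = 0.659, 3 of 4 libraries below every Control library). Without Mitol KO replicate 3 the log2 fold change of Marchf1 was -1.10 (edgeR, adjusted p = 0.238), and the exact permutation test gave p = 0.0571.

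Marchf7, the member without a transmembrane segment, had normalized counts of 1106, 961, 923 and 1150 in Mitol KO replicates 1 to 4. Control replicates 1 to 4 had 1035, 1096, 1153 and 1296. Mitol KO replicates 2 and 3 lay below every Control library, and the mean was 89.2% of Control with an interval from 76.2% to 104% (edgeR, log2 fold change -0.17, adjusted p = 0.338, 2 of 4 libraries). The endocytic members Marchf2 and Marchf3 each had 1 Mitol KO library below the Control range. Marchf2 lay between 340 and 481 normalized counts in Mitol KO and between 374 and 472 in Control libraries (edgeR, 90.2% of Control, interval 73.8% to 110%, adjusted p = 0.515, 1 of 4 libraries). Marchf3 lay between 124 and 205 in Mitol KO and between 141 and 207 in Control libraries (edgeR, 88.1% of Control, interval 65.3% to 119%, adjusted p = 0.598, 1 of 4 libraries). Marchf9, the trans-Golgi member, lay between 50.3 and 75.9 in Mitol KO and between 55.6 and 73.6 in Control libraries (edgeR, 95.8% of Control, interval 68.1% to 135%, adjusted p = 0.894, 2 of 4 libraries). Its log2 fold change of -0.06 changed sign when Mitol KO replicate 1, Mitol KO replicate 3 or Control replicate 4 was left out, to 0.02, 0.04 and 0.02.

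How much higher another MARCH gene could be in the libraries labelled Mitol KO can be read from the upper ends of the intervals. Of the 7 other members, the limit was 104% of Control for Marchf7, 110% for Marchf2, 119% for Marchf3, 128% for Marchf6, 135% for Marchf9, 137% for Marchf8 and 167% for Marchf1, each at the upper end of its 95% interval. Summed over these 7 genes, normalized counts were 4071, 3550, 3839 and 4079 in Mitol KO replicates 1 to 4 and 3612, 3662, 3764 and 4128 in Control replicates 1 to 4. The sums covered almost the same range in both groups, with means of 3885 ± 249 and 3792 ± 233 (SD, n = 4 each), and Marchf6 and Marchf7 made up most of them. Marchf5 took 6.13% to 7.44% of the family's normalized counts in Mitol KO and 5.97% to 8.14% in Control libraries.

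**Figure D2:**
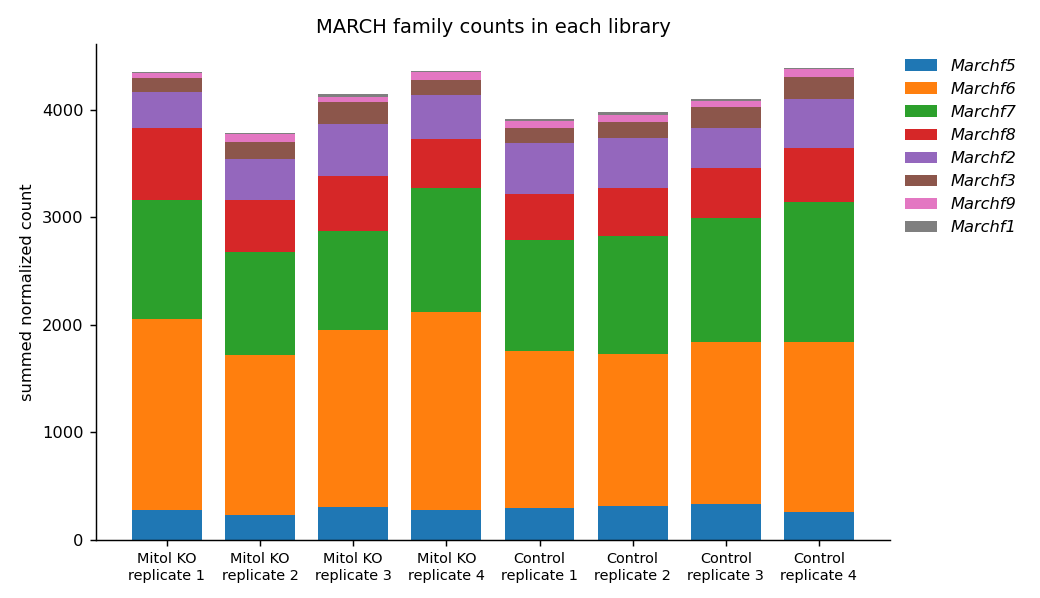
Summed normalized counts of the 8 MARCH genes (y axis, from 0) in each library, stacked by gene. Marchf6 (orange) and Marchf7 (green) fill most of each bar, Marchf5 (blue, at the base) takes between 5.97% and 8.14%, and the bars of the groups reach similar heights.

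Levels of different genes were compared as normalized counts per kilobase (kb) of all annotated exons joined. In Control HSCs Marchf6 stood highest on this scale, at 138 ± 6.64 (SD, n = 4), above 84.2% of the 16061 tested genes that have a length. Marchf7 followed at 91.7 ± 8.92, and its range did not meet that of either neighbour. Marchf5 came next at 53.1 ± 5.25, above 56.8% of genes, and Marchf6 had 2.6 times its level. Marchf8 at 46.6 ± 3.04 and Marchf2 at 42.8 ± 4.42 stood just below. The library ranges of Marchf5 and Marchf8 overlapped, as did those of Marchf8 and Marchf2, so these neighbours did not differ beyond their spread. Marchf9 at 20.3 ± 2.37 and Marchf3 at 17.2 ± 3.22 overlapped as well, and Marchf1 was last at 1.96 ± 0.545, above 1.46% of genes. In Mitol KO libraries the levels per kb of exon were 157 ± 14.8 for Marchf6, 82.9 ± 8.81 for Marchf7, 48.3 ± 5.6 for Marchf5 and 53.3 ± 9.58 for Marchf8. The places of Marchf5 and Marchf8 were thus exchanged there, with overlapping ranges in both groups.

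The order depended on which annotated length was used, because the MARCH genes differ in how much longer all exons joined are than 1 transcript. Per kb of the longest transcript, Control levels ran from Marchf6 (190 ± 9.12) through Marchf7, Marchf2, Marchf8 and Marchf5 (66.7 ± 6.6) to Marchf3, Marchf9 and Marchf1 (3.1 ± 0.861). Per kb of the canonical transcript, Marchf2 came first at 289 ± 29.9, followed by Marchf7 at 261 ± 25.4, Marchf3 at 204 ± 38.1, Marchf6 at 191 ± 9.19 and Marchf5 at 159 ± 15.7. The canonical transcript of Marchf2 has 1526 bases where its joined exons cover 10318, and that of Marchf3 has 860 where its joined exons cover 10199. Under each of the 3 lengths Marchf7 was second, Marchf1 was last and Marchf9 was sixth or seventh.

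**Figure D3:**
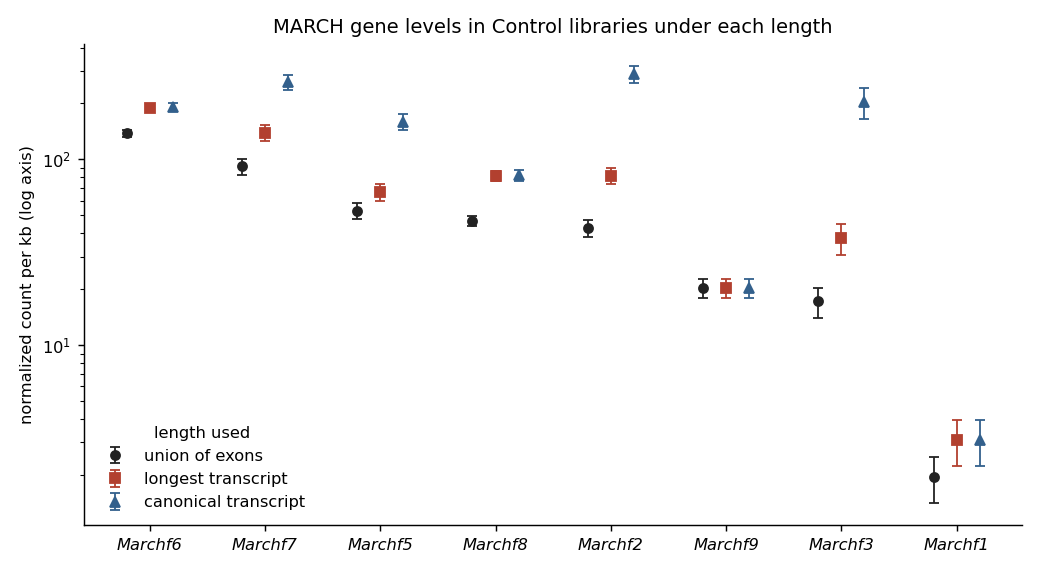
Normalized counts per kb (y axis, log scale) of the 8 MARCH genes in the 4 Control libraries, as mean with SD, for 3 definitions of gene length. Marchf1 is lowest under each, while Marchf2 moves from 42.8 with all exons joined to 289 with the canonical transcript.

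The spread between libraries of 1 group exceeded counting error for most members. For Marchf5 the CV over Control libraries was 9.9%, where counting error alone gives 5.86%. Marchf7 had a CV of 9.73% against 2.99%, and Marchf3, the noisiest member of moderate level, 18.7% against 7.6%. Marchf9 and Marchf1 lay close to counting error in Control libraries, at 11.7% against 12.7% and 27.8% against 25.6%. In Mitol KO libraries, Marchf8 had a CV of 18% and Marchf1 of 77.5%, against 4.17% and 28% from counting error.

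Several MARCH genes share exon bases with a neighbour in GENCODE vM39, and how the counting treated strand and shared bases is not given in the sources used here. Marchf2 overlaps Hnrnpm, an RNA-binding protein gene, over 1169 exon bases on the same strand. Hnrnpm had 2273 ± 19.5 normalized counts in Control and 2686 ± 235 in Mitol KO libraries (edgeR, log2 fold change 0.22, adjusted p = 0.107, 4 of 4 libraries above every Control library), while Marchf2 was fitted lower. Hnrnpm passed in DESeq2 (adjusted p = 0.0482) and, without Mitol KO replicate 4, in edgeR (adjusted p = 0.0239). Marchf3 overlaps Lmnb1, which encodes lamin B1, over 466 exon bases on opposite strands. Lmnb1 rose from 1043 ± 233 to 2181 ± 652 normalized counts (edgeR, log2 fold change 1.04, standard error 0.21, adjusted p = 0.0154, 4 of 4 libraries), while Marchf3 had a fitted log2 fold change of -0.18. Without Control replicate 2, Lmnb1 had a log2 fold change of 0.96 and did not pass (edgeR, adjusted p = 0.0538). Marchf5 overlaps Cpeb3 over 416 exon bases on opposite strands, and Cpeb3 had between 11 and 39 counts per library. The noncoding gene Gm59028 shares 249 exon bases with Marchf5, also on the opposite strand. Marchf7 shares 159 exon bases with Baz2b, and noncoding genes overlap Marchf1 (Gm15354 by 546 exon bases and Gm64317 by 77), Marchf6 (by 298) and Marchf8 (by 255), all on opposite strands. Marchf9 shares 0 exon bases with its neighbour Cdk4. On GRCm39, Marchf1 spans chr8:66070552-66924618, Marchf2 chr17:33904666-33937712, Marchf6 chr15:31454566-31531252, Marchf7 chr2:60039885-60081020, Marchf8 chr6:116314816-116386501 and Marchf9 chr10:126890880-126896175, and Marchf3 lies on chromosome 18.

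Marchf5 was compared over the 8 libraries with 12006 genes that had a mean normalized count of at least 50. The measure was log2 CPM (counts scaled to the library total after adjustment by edgeR's TMM factors). The genes that followed Marchf5 most closely were Mst1 and Dhrs7 (Pearson r = 0.952 each), Zfp809 (0.941), Gng2 (0.939) and Serf2 (0.939). Their Spearman's rho values ran from 0.786 to 0.952. These are descriptions of 8 points that share library, depth and group, and the genes were picked as the highest of 12006. None of the 5 passed the threshold between the groups, with adjusted p-values in edgeR from 0.164 to 0.753.

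In the libraries as a whole, named genes had between 7214935 and 12398138 counts. The sorting markers Slamf1 (CD150) and Procr (EPCR) were present in every library, at 299 to 669 and 387 to 719 normalized counts, and Cd48 was low, at 4.49 to 21.7 in Control and 22.2 to 63.4 in Mitol KO libraries (edgeR, adjusted p = 0.045). Of 8 HSC markers 2 were lower in Mitol KO (Kit and Hlf), against 3.75% of all genes, with 4 past the threshold in DESeq2 and 6 at an unadjusted p under 0.05 in edgeR. Kit, whose product CD117 is in the paper's gate, lay between 6061 and 8386 in Mitol KO and between 10221 and 13429 in Control libraries (edgeR, adjusted p = 0.00705). Other members of the list lay the other way, with Slamf1 between 412 and 669 in Mitol KO and between 299 and 410 in Control libraries (edgeR, adjusted p = 0.0501, DESeq2, adjusted p = 0.0117) and Ly6a at 169% of Control (edgeR, adjusted p = 0.0605, DESeq2, adjusted p = 0.0107). The list summed to between 18819 and 22212 normalized counts in Mitol KO and between 26850 and 32122 in Control libraries. Erythroid markers summed to between 1176 and 2682 in Mitol KO and between 462 and 901 in Control libraries. Of 5 tested members 2 were higher in edgeR (Gata1 and Hbb-bt), against 4.68% of all genes. By limma-voom the count was 2 and by DESeq2 1, where Hbb-bt had an adjusted p of 0.0503. At an unadjusted p under 0.05 in edgeR there were 4, against 26.4% of all genes. The hemoglobin gene Hba-a1 had 388 normalized counts in Mitol KO replicate 3 and at most 7.91 in any other library. Another erythroid marker, Car1, had 523 in Mitol KO replicate 4 and at most 52.8 in any other library. Gata1 had 114, 131, 297 and 305 in Mitol KO replicates 1 to 4. The calls on Cd48 and Hbb-bt were kept in 2 and 3 of the 8 edgeR fits that left out 1 library. Markers of T cells and of mast cells had 0 members past the threshold in edgeR, DESeq2 or limma-voom and 0 at an unadjusted p under 0.05. Those of neutrophils and monocytes had 0 of 4 in edgeR and limma-voom, but 2 in DESeq2 and 2 at an unadjusted p under 0.05 in edgeR. These were Prtn3 and Itgam, at 169% and 305% of Control (edgeR, adjusted p = 0.0674 and 0.0768). S100a9, too low to be tested, lay the other way, at 0 in every Mitol KO library and 2.64 to 21.3 in Control libraries. S100a8, also not tested, had 0 to 1.57 in Mitol KO and 0 to 51.2 in Control libraries. The untested Elane and Mpo overlapped between the groups. The part of these marker differences in the results on the MARCH genes and their lists was not tested.

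Genes that work with or beside the MARCH ligases were read from lists written from general knowledge. Of 61 genes tested in 6 lists, 7 (11.5%) passed the threshold, 3 higher and 4 lower in Mitol KO, where 8.43% of all genes did. By DESeq2 the count was 10 and by limma-voom 5, where 14% and 8.35% of all genes passed. It was 2 without Mitol KO replicate 2, Control replicate 2 or Control replicate 4, 3 without Mitol KO replicate 1, Mitol KO replicate 3 or Control replicate 3, 6 without Control replicate 1 and 9 without Mitol KO replicate 4. Without both Mitol KO replicate 3 and Control replicate 4, the libraries with the highest Hba-a1 and the highest H2-Aa count, it was 0 in edgeR, and the count over all genes fell from 1386 to 62. The 7 genes kept their directions there, with log2 fold changes from -1.65 (H2-Aa) to 2.17 (Il1r1). That fit held 3 libraries per group and no other pair was left out. Whether the fall is particular to this pair was therefore not tested.

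The reported MITOL substrates had 10 tested genes, of which 0 rose and 1 fell (10%), against 8.43% of all genes. DESeq2 and limma-voom called 1 each, against 14% and 8.35% of all genes. The median log2 fold change of these substrates was -0.03. Ern1, the gene of IRE1α, had 1953, 2052, 2186 and 2383 normalized counts in Mitol KO replicates 1 to 4 and 2647, 2724, 2786 and 2684 in Control replicates 1 to 4. The groups did not overlap, and Ern1 in Mitol KO was 78.1% of Control with an interval from 68.9% to 88.6% (edgeR, log2 fold change -0.36, standard error 0.084, adjusted p = 0.0264, 4 of 4 libraries). The call was lost when Mitol KO replicate 1, 2 or 3 or Control replicate 2, 3 or 4 was left out, with adjusted p-values in edgeR from 0.0591 to 0.0786 and log2 fold changes from -0.36 to -0.31. Mfn2, the mitofusin that also tethers mitochondria to the ER, lay between 788 and 946 in Mitol KO and between 755 and 856 in Control libraries (edgeR, 102% of Control, interval 89.2% to 118%, adjusted p = 0.845). Mcl1, an inhibitor of apoptosis, was the most abundant of the list and lay between 3740 and 4631 in Mitol KO and between 3080 and 5016 in Control libraries (edgeR, adjusted p = 0.759). The fission genes Dnm1l and Fis1 had log2 fold changes of 0.04 and 0.01 (edgeR, adjusted p = 0.841 and 0.982). Pmaip1, the gene of the BH3-only protein NOXA, was not tested because of its low counts.

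Targets reported for the other MARCH ligases had 20 tested genes, of which 3 rose and 2 fell (25%). Over all genes 8.43% passed, 4.68% higher and 3.75% lower. DESeq2 called 7 of the targets and limma-voom 3, against 14% and 8.35% of all genes. At an unadjusted p under 0.05 in edgeR there were 8, against 26.4% of all genes. The median log2 fold change of these targets was -0.04. The ligases act on these proteins, whereas the counts measure their transcripts. Tfrc, the transferrin receptor gene, had 621, 760, 1224 and 972 normalized counts in Mitol KO replicates 1 to 4 and 509, 609, 467 and 618 in Control replicates 1 to 4. The groups were apart by a narrow gap (edgeR, log2 fold change 0.68, standard error 0.19, adjusted p = 0.045, 4 of 4 libraries). Mitol KO replicate 3 was highest, the library in which the red cell gene Hba-a1 reached 388. Mitol KO replicate 4, in which the erythroid marker Car1 reached 523, came next. The markers were not high together, with Hba-a1 at 5.29 in Mitol KO replicate 4 and Car1 at 6.41 in Mitol KO replicate 3. The part of these marker counts in the Tfrc result was not tested. Without Mitol KO replicate 3 the log2 fold change of Tfrc was 0.50 (edgeR, adjusted p = 0.102). Its call was also lost without Mitol KO replicate 2 or any 1 Control library, with adjusted p-values in edgeR from 0.0639 to 0.109, in limma-voom (adjusted p = 0.0685), and in edgeR with upper-quartile factors or library totals alone (adjusted p = 0.0659 and 0.0636). Bsg, which encodes the surface protein basigin, lay between 1566 and 1715 in Mitol KO and between 1138 and 1410 in Control libraries (edgeR, log2 fold change 0.39, standard error 0.088, adjusted p = 0.022, 4 of 4 libraries). Without Mitol KO replicate 1, 2 or 3 or Control replicate 2, 3 or 4, the adjusted p of Bsg in edgeR lay between 0.0513 and 0.0721. Il1r1, the interleukin-1 receptor gene, had 244, 220, 317 and 703 in Mitol KO replicates 1 to 4 and 69.9, 113, 73.5 and 158 in Control replicates 1 to 4. Mitol KO replicate 4 was highest, and the mean was 350% of Control with an interval from 199% to 616% (edgeR, log2 fold change 1.81, standard error 0.37, adjusted p = 0.0177, 4 of 4 libraries). The adjusted p of Il1r1 was 0.0538 without Control replicate 2.

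H2-Aa and H2-Ab1 encode the chains of an MHC class II molecule, which MARCHF1 and MARCHF8 remove from the surface. H2-Aa had 47, 96.6, 55.8 and 21.2 normalized counts in Mitol KO replicates 1 to 4 and 167, 157, 188 and 415 in Control replicates 1 to 4. All Mitol KO libraries lay below all Control libraries, at 23.3% of Control with an interval from 12.5% to 43.4% (edgeR, log2 fold change -2.10, standard error 0.41, adjusted p = 0.0154, 4 of 4 libraries). Control replicate 4 stood far above the other Control libraries, and in it the MHC class II chaperone gene Cd74 had 1436 counts against 397 to 451 in the other Control libraries and the dendritic cell gene Clec9a 115 against 11.9 to 41.4. Without Control replicate 4, the log2 fold change of H2-Aa was -1.65 (edgeR, adjusted p = 0.0373). The B lineage list summed to between 450 and 578 in Mitol KO and between 595 and 1581 in Control libraries, with 4 of 7 markers in the table and 0 of 2 tested members past the threshold in edgeR, DESeq2 and limma-voom (1 at an unadjusted p under 0.05 in edgeR), and most of each sum was Cd74, at 321 to 437 in Mitol KO and 397 to 1436 in Control libraries. The defining B cell marker Cd79a, too low to be tested, had 0 to 2.75 counts in Mitol KO and 3.19 to 17.9 in Control libraries, without overlap. The dendritic list, with 2 of 5 markers in the table, summed to between 396 and 1328 in Mitol KO and between 530 and 745 in Control libraries, nearly all of it Flt3, which progenitors also express. Its other marker, Clec9a, lay the other way, at 3.13 to 17.7 in Mitol KO and 11.9 to 115 in Control libraries (log2 fold change -2.14, unadjusted p = 0.00559 and adjusted p = 0.0574 in edgeR, adjusted p = 0.012 in DESeq2). Their part in the H2-Aa result was not tested. H2-Ab1 lay between 63.5 and 128 in Mitol KO and between 121 and 310 in Control libraries, and the groups overlapped (edgeR, 49.9% of Control, interval 32.5% to 76.6%, adjusted p = 0.0492, 3 of 4 libraries below every Control library). Its call was lost in limma-voom (adjusted p = 0.0662), in edgeR without the filter on low counts (adjusted p = 0.0573) and without each library except Control replicate 2, with adjusted p-values from 0.063 to 0.147 in edgeR, the highest without Control replicate 4. The abundant MHC class I genes H2-K1 and H2-D1 had log2 fold changes of -0.12 and -0.08 (edgeR, adjusted p = 0.364 and 0.562), and Cd44, a surface receptor, 0.01 (adjusted p = 0.979).

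**Figure D4:**
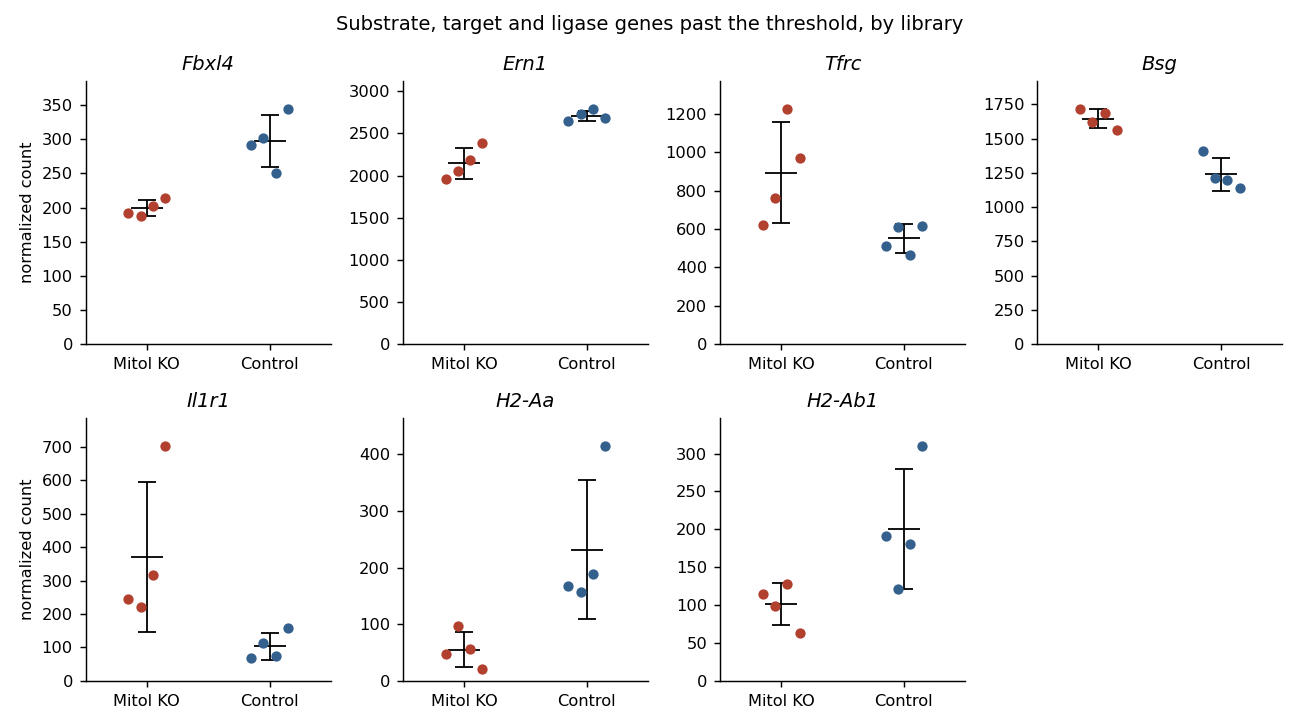
Normalized counts (y axis, from 0) of the 7 list genes past the threshold in the 4 Mitol KO (red) and 4 Control (blue) libraries; points are libraries, horizontal bars are means and error bars are SDs. The groups are apart in each panel except H2-Ab1, and single libraries stand out for Tfrc (1224), Il1r1 (703) and H2-Aa (415).

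Genes tied to MARCHF6 had 0 of 6 tested members past the threshold in edgeR, DESeq2 and limma-voom. Over all genes the shares were 8.43%, 14% and 8.35%. At an unadjusted p under 0.05 in edgeR there were 0, against 26.4% of all genes. The log2 fold changes lay between -0.21 and 0.17, with a lowest adjusted p of 0.474 (edgeR). These genes include MARCHF6's sterol synthesis substrate Sqle, the deubiquitinase Usp19 and the E2 enzyme Ube2g2. Sqle lay between 342 and 533 normalized counts in Mitol KO and between 263 and 630 in Control libraries. Usp19 lay between 3275 and 4039 and between 3278 and 3740, and Ube2g2 between 257 and 348 and between 251 and 291. Among 13 E2 conjugating enzymes, which hand ubiquitin to RING ligases, 0 passed in edgeR and limma-voom, against 8.43% and 8.35% of all genes. In DESeq2 1 passed, against 14% of all genes. At an unadjusted p under 0.05 in edgeR there were 2, against 26.4% of all genes. Of the 13, 9 were fitted higher, with a median log2 fold change of 0.13. The most abundant, Ube2d3, was at 108% of Control with an interval from 95.2% to 121% (edgeR, adjusted p = 0.443), Ube2l3 at 115% (98.0% to 134%, adjusted p = 0.252) and Ube2k at 113% (97.0% to 131%, adjusted p = 0.294). Ube2k passed without Mitol KO replicate 4, with a log2 fold change of 0.28 (edgeR, adjusted p = 0.0478). Ube2g1, not named by the rule and chosen after its values were seen, had the lowest adjusted p of the enzymes, 0.0622 in edgeR, with a log2 fold change of 0.39.

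Other ubiquitin ligases of mitochondria, with the deubiquitinase Usp30, had 5 tested genes, of which 0 rose and 1 fell (20%). Over all genes 8.43% passed. DESeq2 and limma-voom called 1 each, against 14% and 8.35% of all genes. Fbxl4, the substrate receptor of a mitochondrial ligase complex that limits mitophagy, had 192, 188, 202 and 214 in Mitol KO replicates 1 to 4 and 291, 302, 251 and 344 in Control replicates 1 to 4. The groups did not overlap, and Fbxl4 in Mitol KO was at 66.1% of Control with an interval from 53.9% to 81.0% (edgeR, log2 fold change -0.60, standard error 0.14, adjusted p = 0.0235, 4 of 4 libraries). The call on Fbxl4 was lost without Mitol KO replicate 1, 2 or 3 or Control replicate 2 or 4, with adjusted p-values in edgeR from 0.0592 to 0.0683. Mul1, another ligase of the outer mitochondrial membrane with a RING domain, had a mean of 403 ± 62.6 in Mitol KO and 396 ± 23.7 in Control libraries (edgeR, adjusted p = 0.98, interval 82.8% to 122% of Control). Huwe1, a very large cytosolic ligase, was higher in 4 of 4 Mitol KO libraries than in any Control library, at 12842 ± 666 and 11521 ± 742, but did not pass the threshold (edgeR, log2 fold change 0.14, adjusted p = 0.268). Usp30, which removes ubiquitin from mitochondrial proteins, was at 86.2% of Control with an interval from 71.8% to 104% (edgeR, adjusted p = 0.289).

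Other ligases of the ER membrane had 0 of 9 members past the threshold in edgeR, DESeq2 and limma-voom. Over all genes the shares were 8.43%, 14% and 8.35%. At an unadjusted p under 0.05 in edgeR there was 1, against 26.4% of all genes. Of the 9, 7 were fitted higher and 2 lower, with a median log2 fold change of 0.06 and a lowest adjusted p of 0.124 (edgeR). Syvn1, the HRD1 ligase of ER-associated degradation, was at 102% with an interval from 87.1% to 120% (edgeR, adjusted p = 0.889), and Rnf145, a sterol-responsive ligase, at 103% with an interval from 88.0% to 122% (adjusted p = 0.812). Rnf139, also called TRC8, was at 104% with an interval from 85.4% to 127% (edgeR, adjusted p = 0.814).

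**Figure D5:**
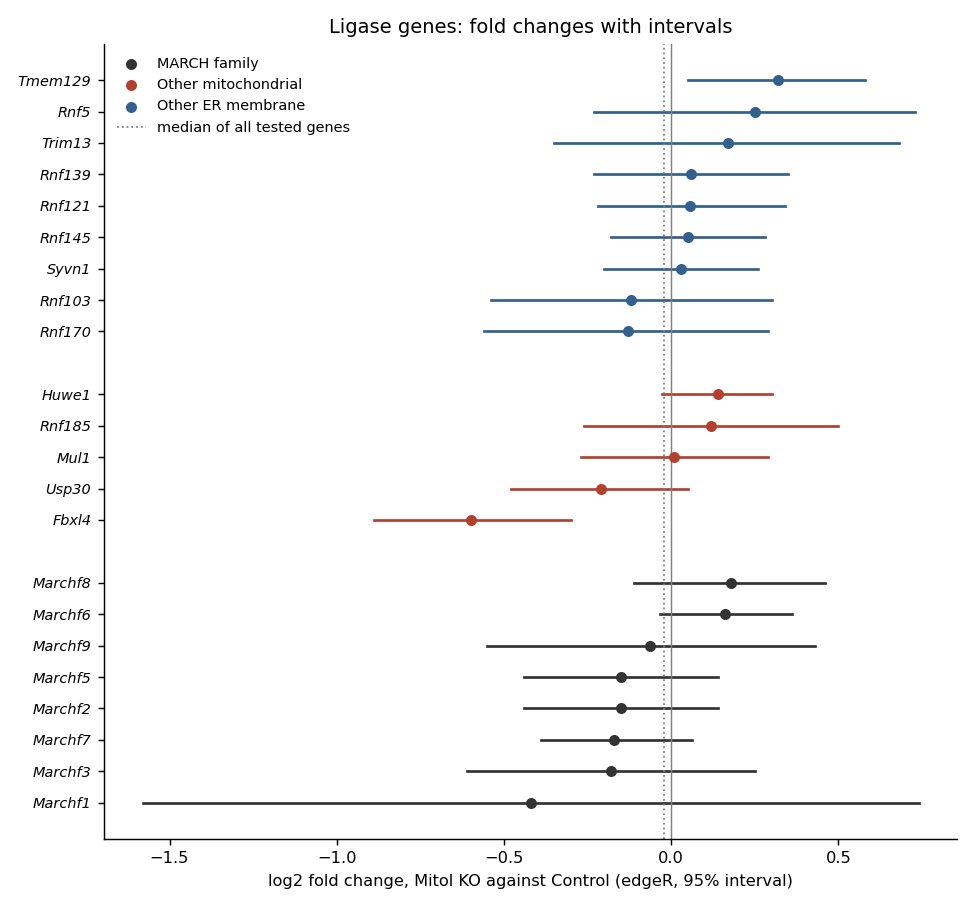
Log2 fold changes of Mitol KO against Control (x axis, edgeR) with 95% intervals for the MARCH family (black), other mitochondrial genes (red) and other ER membrane ligases (blue). Fbxl4 (-0.60) is the mitochondrial gene past the threshold, while the intervals of all 8 MARCH genes include 0.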

How the data were processed

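RNA-seq was done on 4 Mitol KO and 4 Control libraries. The deposited values are raw counts per gene, which the authors obtained from single-end reads of 75 bases. STAR, SAMtools and Subread did the mapping to mm39, the merging of alignments and the counting. The annotation, the strand setting and the treatment of shared or repeated matches are not given in the sources used here. Of 23094 rows, 1029 carry no symbol (0.335% to 0.467% of counts) and were left out. Every row has at least 11 counts in all, so rarer genes were not analysed here. Totals ran from 7214935 to 12398138. Reads carry no molecular identifiers, so counting errors are lower limits.

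Genes were tested with edgeR 4.0.16 (quasi-likelihood test, TMM, default filter, condition as the sole term, adjusted p under 0.05 by Benjamini-Hochberg). Intervals of 95% came from the quasi-likelihood F. Normalized counts used size factors of DESeq2 1.42.0. Alternatives were other normalizations and filters, DESeq2, limma-voom (limma 3.58.1), a replicate block, a threshold of 0.1, other lengths and each library left out. Leaving out Mitol KO replicate 3 with Control replicate 4 and the canonical transcript length were alternatives chosen after seeing the data. Fits were tested on simulated counts. Gene models came from GENCODE vM39 on GRCm39, and copies were sought with BLAST 2.17.0. Primer sequences came from the study's primer list.

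Members and lists were chosen with earlier results of these data known. Named genes were all MARCH genes and, in each list, every member past the threshold and the 3 most abundant, plus the 5 genes most correlated with Marchf5 over the libraries. Dnm1l, Fis1, Pmaip1, Ube2g1 and genes overlapping MARCH exons were added afterwards. Some genes of the lists are not reported here and were left out of every list's counts and sums, so the next most abundant member was named in their place.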

Additional observations from a re-analysis of the deposited data

Results flagged for a closer look

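In groups of 4 libraries, the highest or lowest library was set against the others by the ratio of its gap to the whole range. Over 64 groups of 32 genes, 7 had a library past the 95% limit, where chance gives about 1 in 20 groups. Among MARCH genes this was Marchf2, with 374 normalized counts in Control replicate 3 and 458 to 472 in the other Control libraries. Control replicate 4 had 415 for H2-Aa, against 157 to 188 in the others, and 10416 for Huwe1, against 11791 to 12007. Control replicate 1 had 2556 for Cd44, against 3104 to 3186. Control replicate 3 had 998 for Ube2k, against 932 to 940. Mitol KO replicate 1 had 1342 for Rnf145, against 980 to 1034, and Mitol KO replicate 2 had 827 for Syvn1, against 917 to 920. The cause was not tested.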

How the results depend on the processing

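The count of MARCH genes past the threshold was 0 under every alternative run, each MARCH gene except Marchf9 kept its direction, and depth limits Marchf1, at 5 to 28 counts, most. Genes past the threshold numbered 1386, 2315 by DESeq2, 2585 at a threshold of 0.1, 359 (without Control replicate 2) to 2501 (without Mitol KO replicate 4) with 1 library left out, and 62 without Mitol KO replicate 3 and Control replicate 4. List genes past it numbered 7, 2 to 9 with 1 library left out and 0 without that pair. No other pair was left out, so whether these falls are particular to it was not tested. The log2 fold change of Marchf9 (-0.06) lay between -0.16 and 0.04 with 1 library left out and was 0.12 without the pair, and its exact permutation p lay between 0.429 and 0.886 with 1 library left out. That of Marchf6 lay between 0.0286 and 0.171, the lowest fixed by leaving out its only Mitol KO library within the Control range. As shares of the family's level, averaged over all 8 libraries, with the longest and the canonical transcript in place of joined exons, Marchf2 (9.91%) had 12.6% and 23.4%, Marchf3 (3.93%) 5.72% and 16.2%, Marchf6 (35.5%) 32.5% and 17.3%, Marchf8 (12%) 14% and 7.46%, and Marchf9 (4.85%) 3.22% and 1.7%, and Marchf5 (12.3%) had 10.2% with the longest transcript.

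Log2 fold changes near 0 changed sign, none past the threshold. With upper-quartile factors and with library totals alone they were -0.027 and -0.02 for Mfn2, -0.057 and -0.053 for Cd44, -0.017 and -0.012 for Usp19, -0.053 and -0.048 for Mul1, -0.015 and -0.0081 for Rnf145, and -0.031 and -0.024 for Syvn1, and Rnf139 had -0.005 with upper-quartile factors. At a mean count of at least 50 they were -0.022 for Cd44 and -0.019 for Mul1, and Mul1 had -0.0059 in limma-voom. With libraries left out, the pair included, they ran from -0.22 to 0.00092 for Mcl1, -0.015 to 0.087 for Mfn2, -0.049 to 0.061 for Cd44, -0.027 to 0.10 for Usp19, -0.25 to 0.26 for Sqle, -0.10 to 0.082 for Mul1, -0.057 to 0.12 for Rnf145, -0.036 to 0.15 for Rnf139 and -0.051 to 0.092 for Syvn1. The causes were not tested.

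Replicate numbers in the labels did not pair the libraries, since the correlations of same-numbered deviations were 0.08, -0.0695, 0.0529 and 0.0669. With the replicate number as a block, 1652 genes passed, with 0 MARCH genes and 7 list genes among them, H2-Ab1 did not pass (edgeR, adjusted p = 0.0733, log2 fold change -0.95), Mul1 had -0.0025 on the log2 scale, and 2 of the 4 Mitol KO libraries correlated best with the Control library of their own number.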
